A study of Mus musculus with 2 samples.

Results

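The iron and metal handling genes described here are the 10 genes *Tfrc*, *Slc11a2*, *Fth1*, *Ftl1*, *Slc40a1*, *Mt1*, *Mt2*, *Slc39a8*, *Slc39a10* and *Slc30a1*, chosen by name and found by Ensembl identifier in both count tables. They are 10 of the 19813 genes with a row in both libraries. Endothelial cells of the retina of wild-type C57BL/6 mice were sorted as CD31+CD45- cells at postnatal day 6 (P6) and day 15 (P15) and sequenced as droplet libraries, 1 for each age. Male and female mice were used in equal numbers per the methods, and the number in each library was not given in the sources used here. The 2 groups share strain, tissue, sort and the absence of any treatment or engineered allele, and differ in age and library, which cannot be told apart.

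Iron enters endothelial cells mainly bound to transferrin, through the transferrin receptor *Tfrc*, and leaves endosomes through the divalent metal transporter *Slc11a2*. Surplus iron is stored in ferritin, a shell of heavy (*Fth1*) and light (*Ftl1*) chains, and is exported by ferroportin, *Slc40a1*. Zinc and manganese are brought into the cytosol by ZIP transporters such as *Slc39a8* and *Slc39a10*, zinc is moved out by *Slc30a1*, and the metallothioneins *Mt1* and *Mt2* bind zinc and copper. In the retina, the endothelium is a barrier between the blood of these vessels and the neural tissue.

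Several of these messages carry an iron response element, a hairpin bound by iron regulatory proteins when iron is low. It is known to block translation when it lies in the 5′ UTR and to protect the message from decay when it lies in the 3′ UTR. A search of GENCODE M21 transcripts for the element (a 6-base loop closed by 5 paired bases, outside coding sequence) found it in the 5′ UTR of *Fth1* (GRCm38 chr19:9982732-9982760, plus strand), *Ftl1* (chr7:45459779-45459807, minus strand) and *Slc40a1* (chr1:45925465-45925493, minus strand). In *Tfrc* it was found 5 times in the 3′ UTR, at chr16:32631160-32631188, chr16:32631219-32631247, chr16:32631598-32631626, chr16:32631663-32631691 and chr16:32631710-32631738 on the plus strand, named A to E. Such a match was present in 243 of 21877 protein coding genes (1.11%), and in none of *Slc11a2*, *Mt1*, *Mt2*, *Slc39a8*, *Slc39a10* and *Slc30a1*. The search required all 5 bases to pair and misses elements with another stem, so no match does not show that a message lacks the element. The sites are printed because the storage and export genes hold the element in the 5′ UTR and the uptake gene *Tfrc* in the 3′ UTR. Each run is 29 bases of the transcript, with the loop in capitals.
Fth1: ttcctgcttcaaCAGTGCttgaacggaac
Ftl1: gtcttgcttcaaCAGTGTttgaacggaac
Slc40a1: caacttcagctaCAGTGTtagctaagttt
Tfrc A: atttatcagtgaCAGAGTtcactataaat
Tfrc B: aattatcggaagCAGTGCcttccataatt
Tfrc C: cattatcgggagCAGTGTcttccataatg
Tfrc D: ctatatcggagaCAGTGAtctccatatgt
Tfrc E: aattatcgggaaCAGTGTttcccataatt

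*Mt1* and *Slc30a1* are known targets of the metal-responsive factor Mtf1, which binds metal response elements with the core TGCACNC or TGCGCNC. Both spellings were searched on both strands of RefSeq promoters of GRCm38.p6, where 8 of the 10 members had an entry (not *Slc11a2* and *Slc40a1*). The 250 bases before the start site held 1 core in *Mt1* (chr8:94178839-94179088, plus strand), 1 in *Slc30a1* (chr1:191906531-191906780, plus strand) and 3 in *Mt2*. They also held 1 in 1 of the 2 *Slc39a8* promoters (chr3:135825407-135825656, plus strand). At least 1 core was present in 21.4% of all 32851 promoters and at least 3 in 1.26%. The whole 300-base entries held 3 cores in *Mt1*, 2 in *Slc30a1* and 4 in *Mt2*. Over all promoters, 7.11% of these entries held at least 2 cores and 1.97% at least 3. Matches that overlap were each counted, as for 2 cores in 1 of the 2 *Tfrc* promoters. The 250 bases of *Mt1* and *Slc30a1* are printed with the core in capitals.
Mt1: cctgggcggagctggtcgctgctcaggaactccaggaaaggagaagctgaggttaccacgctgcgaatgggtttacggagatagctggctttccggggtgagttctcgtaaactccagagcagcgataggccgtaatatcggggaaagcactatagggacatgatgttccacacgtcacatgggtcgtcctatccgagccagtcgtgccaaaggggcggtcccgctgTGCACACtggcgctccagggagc
Slc30a1: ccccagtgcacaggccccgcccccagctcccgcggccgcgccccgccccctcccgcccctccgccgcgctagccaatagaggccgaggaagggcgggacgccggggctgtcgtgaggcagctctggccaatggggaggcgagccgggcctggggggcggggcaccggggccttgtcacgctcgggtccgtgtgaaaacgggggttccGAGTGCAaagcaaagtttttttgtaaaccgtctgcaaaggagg

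The P6 library held 1984 barcodes and 13958124 unique molecular identifiers (UMIs, counts of captured RNA molecules), and the P15 library 2141 barcodes and 11589641 UMIs. By the stated exclusion criteria 1424 P6 and 1644 P15 cells passed, with a median of 4985.5 and 4214.5 UMIs. Levels are given in CPM, a gene's UMIs scaled by the total UMIs of those cells. The 6 endothelial markers summed to 7475 CPM at P6 and 12336 CPM at P15, so the cells carried the label of the sort. Marker RNA of other cells was higher at P15: the 7 pericyte genes summed to 11.1 CPM at P6 and 302 CPM at P15, the 6 erythroid genes to 22.6 and 173 CPM, the 9 photoreceptor and neuron genes to 73.1 and 103 CPM, and the 6 microglia genes to 2.35 and 6.65 CPM. The 6 glia genes summed to 369 and 1227 CPM, of which *Glul* made up 366 and 1161 CPM. *Hbb-bt* and *Neurod1* were at 0 in both libraries by the filter. The libraries shared 7 barcodes, of which 2 passed in both. With 1 library per age there is no test of any difference, and all intervals are 95% intervals that cover counting error only.

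At P15 less of the ferritin heavy chain message was counted than at P6 and more of the ferroportin message, while the other well-counted members lay within 1.5 times. *Fth1* was at 2497 CPM at P6 and 1249 CPM at P15, a P15 to P6 ratio of 0.500 (interval 0.488 to 0.513). *Slc40a1*, the iron exporter, was at 286 CPM at P6 and 521 CPM at P15, a ratio of 1.82 (1.73 to 1.92), with a UMI in 64.0% of P6 and 77.1% of P15 cells. The heavy chain and the exporter lay on opposite sides of 1, and both messages hold the loop in the 5′ UTR. The part of the element in these levels was not tested. Of the 8 members with at least 200 UMIs over both libraries, 1 was higher and 1 lower by 1.5 times or more. Among all 7455 genes with that many UMIs, 16.6% were higher and 9.68% lower by as much, so 1 of 8 in each direction is near the background and no result about the members. The median ratio was 1.22 over the 8 members and 1.09 over all tested genes.

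**Figure D1:**
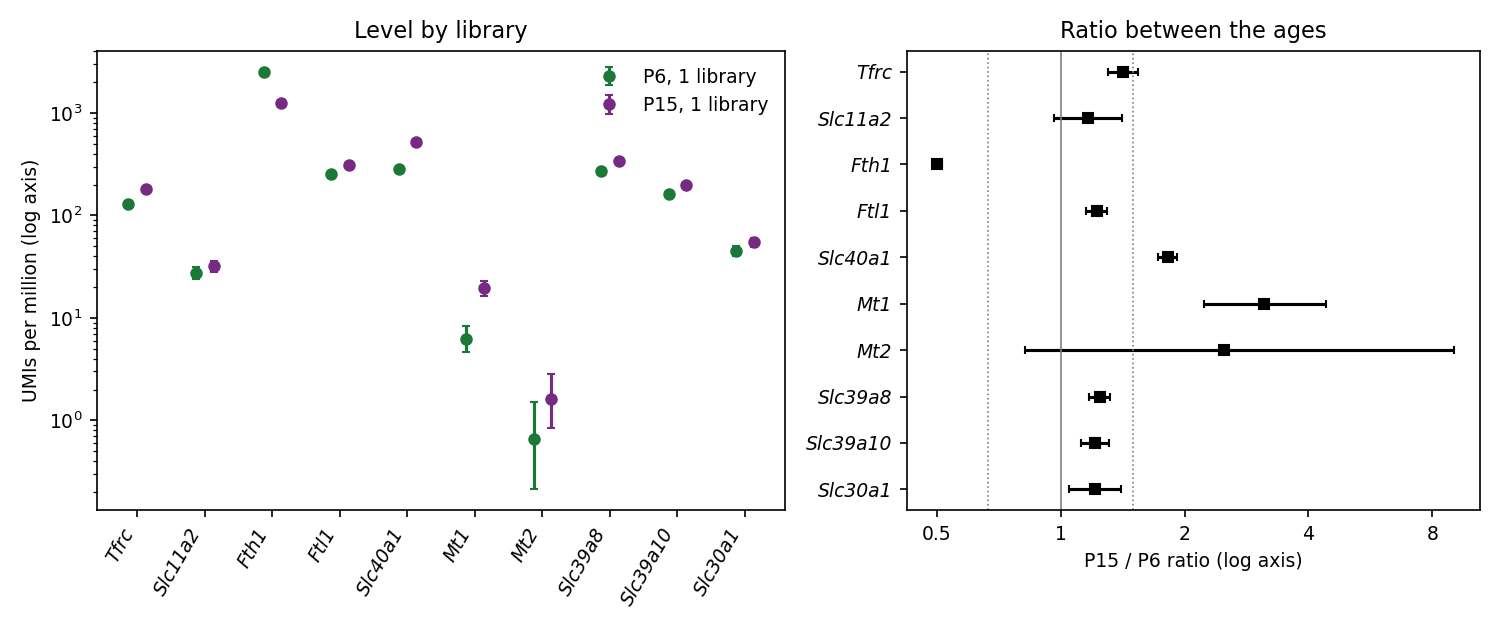
Level in CPM (log axis) of each member in the cells that passed at P6 (green) and P15 (purple), left, and the P15 to P6 ratio (log axis), right, with dotted lines at 1.5 times in either direction; points are single libraries and bars 95% counting intervals. *Fth1* lies at 0.500 and *Slc40a1* at 1.82, while the intervals of *Mt1* and *Mt2* are wide because they rest on few UMIs.

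Of the uptake genes, *Tfrc* was at 129 CPM at P6 and 183 CPM at P15, a ratio of 1.42 (1.31 to 1.54). Cells with a *Tfrc* UMI made up 36.7% of P6 and 40.8% of P15 cells, and 18.9% and 24.7% once each cell was thinned to 2000 UMIs. *Slc11a2* was at 27.3 and 31.9 CPM, a ratio of 1.17 whose interval (0.964 to 1.41) includes 1. The receptor was thus higher in the older library by less than the 1.5-fold limit, and for *Slc11a2* no difference was detectable at this depth. *Tfrc* passed the limit, at 1.52, in cells without markers of other retinal cells, that is without a UMI of the pericyte, photoreceptor and neuron or microglia lists or of *Rlbp1*, *Gfap*, *Aqp4*, *Slc1a3* or *Pax2*.

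The light chain of ferritin did not follow the heavy chain. *Ftl1* was at 254 CPM at P6 and 311 CPM at P15, a ratio of 1.22 (1.15 to 1.30). *Fth1* UMIs were found in 99.2% of P6 and 94.2% of P15 cells, and 94.3% and 88.2% after thinning. The *Ftl1* values are uncertain, because a copy, *Ftl1-ps1* (chr13:74399694-74407346), was counted as a gene of its own. How reads shared by both were counted was not given, and their identity beyond the iron response element was not measured. The copy was at 165 CPM at P6 and 276 CPM at P15 (ratio 1.67), its transcript holds the 29 bases printed for *Ftl1* unchanged, and the sum of both gave a ratio of 1.40 (1.34 to 1.47). The heavy chain copy *Fth-ps2* had 13 and 11 UMIs, and *Ftl1-ps2* 0 and 1.

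The zinc and manganese transporters differed little between the libraries. *Slc39a8* was at 271 CPM at P6 and 337 CPM at P15 (ratio 1.24, interval 1.17 to 1.32), and *Slc39a10* at 163 and 198 CPM (1.21, 1.12 to 1.31). The exporter *Slc30a1* was at 45.2 and 54.7 CPM (1.21, 1.04 to 1.40), but at a ratio of 0.997 when cells were thinned to 2000 UMIs, so its direction depends on how depth is treated. All 3 lay above the median gene and inside the 1.5-fold limit.

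Metallothionein RNA was scarce. *Mt1* had 48 UMIs in 27 P6 cells and 144 UMIs in 120 P15 cells, that is 6.28 and 19.5 CPM, a ratio of 3.11 (2.23 to 4.41) from fewer UMIs than the 200 set for a call. *Mt2* had 5 and 12 UMIs, a ratio of 2.49 whose interval (0.817 to 9.02) includes 1. *Mt1* UMIs were present in 1.90% of P6 and 7.30% of P15 cells. In 11 P6 barcodes with photoreceptor or neuron markers and no *Pecam1*, *Cdh5* or *Cldn5* (median 2976 UMIs), 5 held an *Mt1* UMI (45.5%, exact interval 16.7% to 76.6%). The share in endothelial cells lay below that at both ages, so no difference in endothelial expression is read from it. The part of the higher P15 photoreceptor, pericyte and blood RNA in the *Mt1* difference was not tested. In cells without markers of other retinal cells the ratio was 2.46 (1.48 to 4.09).

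The same 11 barcodes give a view of the other members outside the endothelium. They held no UMI of *Slc40a1*, *Slc39a8*, *Slc30a1* or *Mt2*, which allows up to 93.9 CPM, and 1 UMI each of *Tfrc*, *Slc11a2* and *Slc39a10*. *Slc40a1* and *Slc39a8*, at 286 and 271 CPM in P6 endothelial cells, were above that limit there. *Fth1* was at 1471 CPM (1081 to 1956) in the same barcodes and in 9 of the 11. In 5 P15 pericyte barcodes *Fth1* was at 1245 CPM, and *Slc40a1*, *Slc39a8* and *Tfrc* were at 0, which allows up to 220 CPM. Ferritin heavy chain RNA was thus counted in both kinds of barcode, and ferroportin and *Slc39a8* in neither.

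The main differences were taken again in cells in which no UMI of a marker list was counted, a choice made after seeing the data. In the 1261 P6 and 812 P15 cells without an erythroid UMI the *Fth1* ratio was 0.492 and the *Slc40a1* ratio 1.84. In the 1182 P6 and 662 P15 cells without markers of other retinal cells these ratios were 0.490 and 1.66. In the cells left the *Fth1* difference was as large, and the *Slc40a1* difference stayed past the limit. Whether a cell holds such a UMI depends also on its depth, and *Glul* was not among the genes used. The cells left can thus still hold RNA of other cells, and its part in the differences was not tested. With mitochondrial, ribosomal, haemoglobin and member genes left out of the total, every ratio was multiplied by 0.898, because these genes made up more of the P6 than of the P15 total. *Fth1* was then at 0.449 and *Slc40a1* at 1.63.

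The study grouped its cells into 9 named clusters. The labels used here cover 1560 P6 and 438 P15 barcodes, and the clusters were made from the same counts, so levels by cluster are a description. Over the 9 P6 clusters, each set against the other labelled P6 cells, 6 of 69 tested pairs of member and cluster were higher and 15 lower by 1.5 times or more. Over all genes with enough UMIs, 7.46% of pairs of gene and cluster were higher and 11.8% lower by as much. Of the 8 members with at least 200 UMIs, *Tfrc* had the widest range, from 1 UMI in the 40 Arterial cells (5.06 CPM) to 279 CPM in the 149 Capillary cells. In descending order its P6 levels were 279 CPM in Capillary, 157 in Cap-Venous, 132 in Stalk, 107 in Proliferative, 84.9 in Cap-Arterial, 70.3 in Venous, 65.8 in Primitive, 62.6 in Tip and 5.06 in Arterial cells. Neighbours in that order differed beyond counting error only between Capillary and Cap-Venous, Stalk and Proliferative, and Tip and Arterial.

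Capillary cells stood high for 4 of 8 members, where 16.2% of all tested genes were higher and 25.4% were past the limit in either direction. The transferrin receptor was at 2.53 times the other cells (2.11 to 3.01), the zinc exporter *Slc30a1* at 2.75 times (105 CPM, 2.03 to 3.66) and the zinc importer *Slc39a10* at 2.23 times (317 CPM, 1.89 to 2.63). *Slc11a2* was at 1.59 times, with an interval (0.954 to 2.52) that includes 1, and was inside the limit after thinning (1.35 times), as a mean of cell CPM (1.44 times) and against Cap-Venous cells alone (1.27 times). Fewer ferritin UMIs were counted there, with *Fth1* at 1957 CPM (0.771 times) and *Ftl1* at 195 CPM (0.747 times). At P15 the 42 labelled Capillary cells again lay high for *Tfrc*, at 397 CPM (2.38 times, 1.68 to 3.28), and for *Slc39a10*, at 340 CPM (1.82 times). *Slc30a1* was at 142 CPM there from 15 UMIs, too few for a call. After thinning, *Slc30a1* UMIs were found in 11.1% of P15 Capillary and 21.7% of P15 Cap-Arterial cells. Neither *Slc39a10* nor *Slc30a1* differed beyond counting error between these 2 clusters at P15. Capillary cells also had the lowest median depth of the P6 clusters (3204 UMIs), the highest median mitochondrial share (2.51%) and 136 CPM of the nuclear RNA *Xist*. The same held among the P15 clusters, where Capillary cells had a median of 2268.5 UMIs, a mitochondrial share of 1.81% and 104 CPM of *Xist*. The part of these in the results at either age was not tested. After thinning to 2000 UMIs 5 of the 6 higher pairs and 13 of the 15 lower pairs over all clusters were again past the limit.

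**Figure D2:**
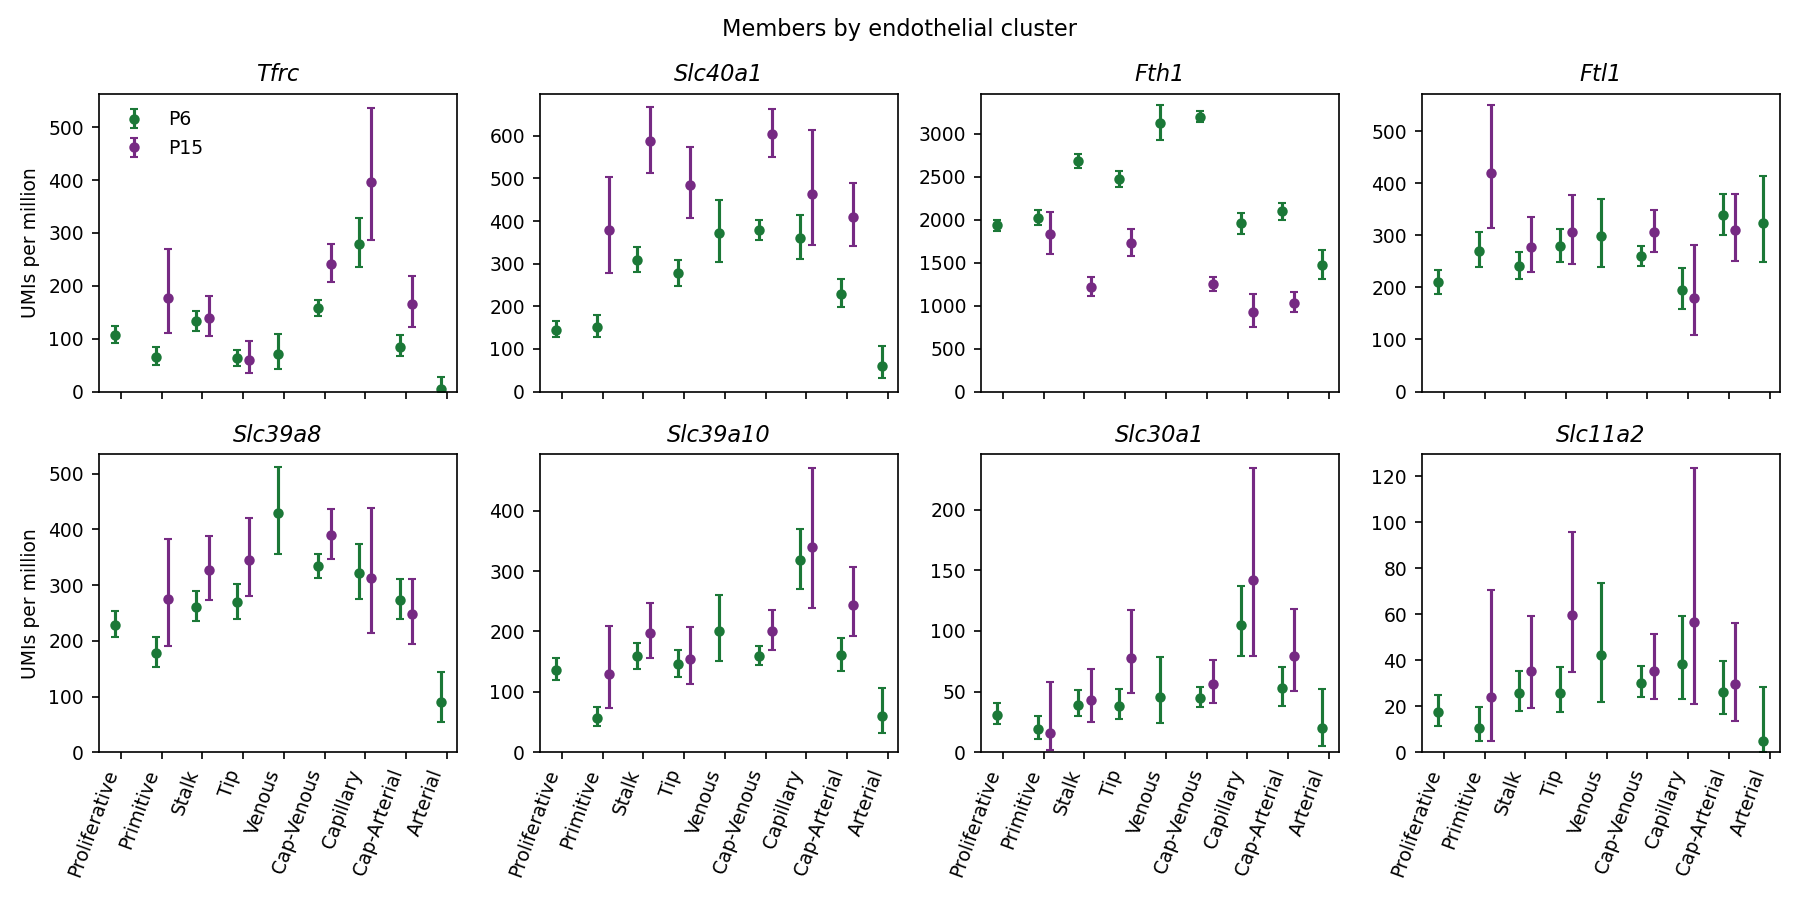
CPM of 8 members in each cluster with at least 20 cells at P6 (green) and P15 (purple); points are all cells of a cluster in 1 library and bars exact Poisson 95% intervals. *Tfrc*, *Slc39a10* and *Slc30a1* have their highest points in Capillary cells at both ages. At P15 *Slc39a10* and *Slc30a1* did not differ beyond counting error between Capillary and Cap-Arterial cells. *Slc40a1*, *Slc39a8* and *Tfrc* are low in P6 Arterial cells, and *Fth1* lies lower at P15 in every cluster with both ages.

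Arterial cells were the reverse, with 5 of 6 members lower, where 18.7% of tested genes were lower and 33% past the limit in either direction. *Tfrc* was at 0.0415 times the other cells (0.00105 to 0.232, from 1 UMI), *Slc40a1* at 60.7 CPM (0.219 times), *Slc39a8* at 91.1 CPM (0.328 times), *Slc39a10* at 60.7 CPM (0.395 times) and *Fth1* at 1473 CPM (0.583 times). The light chain *Ftl1* was the exception at 324 CPM (1.26 times, 0.971 to 1.62). The 11 labelled P15 Arterial cells held 4 *Slc40a1* UMIs (81.5 CPM, 0.157 times) and 4 *Slc39a8* UMIs (0.236 times). The P6 Arterial cells also held 1210 CPM of the photoreceptor and neuron list, against 13.7 to 261 CPM in the other clusters, and 34 of the 40 had such a UMI. Over all P6 cells that passed, *Stmn2* made up 53.7 of that list's 73.1 CPM. Whether it came from neurons or from the Arterial cells was not tested. The 6 Arterial cells without a UMI of the list held 4 UMIs each of *Slc40a1* (0.568 times, 0.155 to 1.46) and *Slc39a8* (0.575 times, 0.157 to 1.47). They held none of *Tfrc*, too few for a call. *Fth1*, with 42 UMIs in these cells, was at 0.666 times (0.480 to 0.900). So few cells, picked by this list, cannot show the part of that RNA in the low levels, which was not tested.

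Cap-Venous and Venous cells had the highest exporter and ferritin heavy chain levels of the P6 clusters. *Slc40a1* was at 379 CPM in Cap-Venous (1.62 times, from 1008 UMIs), 373 in Venous and 360 in Capillary cells, then 309 in Stalk, 277 in Tip and 230 in Cap-Arterial cells, and 152 in Primitive, 145 in Proliferative and 60.7 in Arterial cells. Neighbours among the first 5 of these did not differ beyond counting error. *Fth1* was at 3201 CPM in Cap-Venous and 3128 CPM in Venous cells, at 1.43 and 1.26 times the other cells, both inside the limit. *Slc39a8*, which also carries manganese and iron, was highest in Venous cells (429 CPM, 1.59 times, 1.32 to 1.91), where *Tfrc* was low (0.581 times, 0.353 to 0.901). The first was inside the limit against Cap-Venous cells alone (1.29 times), and the second after thinning (0.705 times). Of the tested genes, 6.27% were past the limit in Cap-Venous and 16% in Venous cells.

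Among the growing clusters, Primitive cells were low for 6 of 8 members, from 0.354 times for *Slc39a10* (57.3 CPM) to 0.627 times for *Slc39a8* (178 CPM), which was at 0.687 times with mitochondrial, ribosomal, haemoglobin and member genes left out of the total. That cluster was low for many genes, with 2015 lower and 356 higher of 5870 tested, 40.4% in all. Proliferative cells were low for *Slc40a1* (0.483 times, 0.422 to 0.552) and *Slc11a2* (0.657 times, 0.429 to 0.972), against 16.7% of tested genes past the limit. *Slc11a2* was inside the limit after thinning (0.857 times), as a mean of cell CPM (0.724 times) and in cells without a photoreceptor or neuron UMI (0.695 times). Tip cells, which lead the sprouts, were low for *Tfrc* (62.6 CPM, 0.492 times, 0.381 to 0.627), with 11.7% of tested genes past the limit. No member passed the limit in Stalk cells (6.68% of tested genes did) or in Cap-Arterial cells (22.3%). *Tfrc* was low in Tip cells at P15 also, at 59.8 CPM and 0.304 times (0.175 to 0.494).

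The 33 *Mt1* UMIs of P6 Tip cells, 29.5 CPM against at most 10.5 CPM in any other P6 cluster, came from 8 of 170 cells. A single cell held 17 of them, and without that cell the Tip level was 14.5 CPM.

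Within clusters the direction of the ages was the same as over all cells for ferroportin and the heavy chain. In the 6 clusters with at least 20 labelled cells at each age, *Slc40a1* was higher at P15 in all 6, by 1.29 times in Capillary and 1.90 times in Stalk cells for example, and the interval lay above 1 in 5. *Fth1* was lower in all 6, with the interval below 1 in 5. Its ratio was 0.391 in Cap-Venous (3201 to 1250 CPM), 0.454 in Stalk, 0.474 in Capillary, 0.493 in Cap-Arterial, 0.697 in Tip and 0.905 in Primitive cells, whose interval (0.785 to 1.04) includes 1. When P15 clusters were averaged with the P6 shares of UMIs, the *Fth1* ratio was 0.546 and the *Slc40a1* ratio 1.78.

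**Figure D3:**
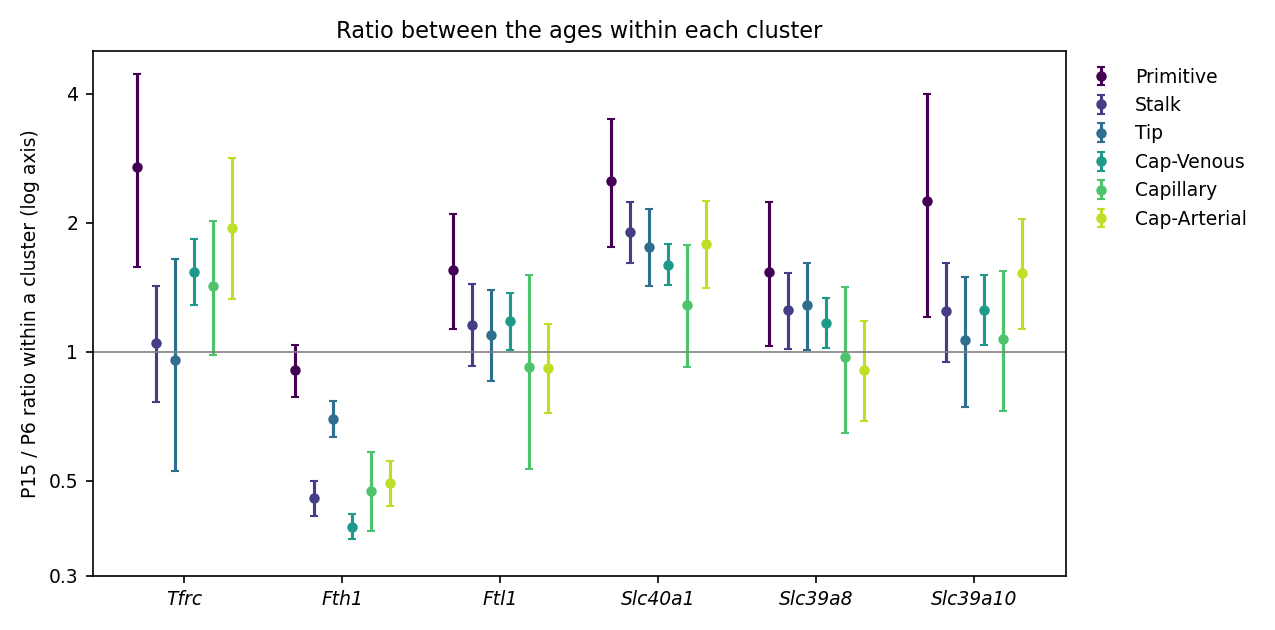
Ratio of P15 to P6 CPM (log axis) within each of 6 clusters for 6 members, with conditional binomial 95% counting intervals. All 6 *Slc40a1* points lie above 1 and all 6 *Fth1* points below it, from 0.391 to 0.905, while *Tfrc* spans from 0.956 in Tip to 2.70 in Primitive cells.

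The ratio of the receptor ranged widely between clusters, and differences between clusters were not tested. *Tfrc* was higher at P15 with an interval above 1 in Primitive (66 to 178 CPM, 2.70 times), Cap-Arterial (84.9 to 165 CPM, 1.94 times) and Cap-Venous cells (157 to 241 CPM, 1.53 times). In Stalk cells the ratio was 1.05 and in Tip cells 0.956, both with intervals that include 1. *Ftl1* was higher in Primitive (1.55 times) and Cap-Venous cells (1.18 times), and its interval included 1 in the other 4. *Slc39a8* and *Slc39a10* ratios ran from 0.904 to 1.54 and from 1.06 to 2.25. *Slc30a1* was at 2.01 times in Tip cells (38.4 to 77.4 CPM, 1.15 to 3.44) and its interval included 1 elsewhere.

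Among single cells thinned to 2000 UMIs, the spread of *Fth1* at P6 lay furthest above counting, by a measure that grows with the mean. Its mean was 4.93 UMIs per cell in 1411 cells with a variance 4.09 times the mean, where counting alone gives a value near 1, and at P15 the mean was 2.53 with 1.67 times. The top 5% of P6 cells held 19.2% of its UMIs, and 47.3% of those of the less abundant *Tfrc*. Of the 71 top cells for *Fth1*, 36 were Cap-Venous, a cluster that made up 26.6% of the thinned cells. *Tfrc* had a variance of 1.74 times the mean at P6 and 1.62 at P15, and *Slc40a1* 1.39 and 1.34. For the other members with over 200 UMIs after thinning this value lay between 1.05 and 1.21. Across cells, the highest Spearman correlation of 15 member pairs was 0.262 at P6 (*Fth1* with *Slc40a1*) and 0.0933 at P15. Cells are not replicates, so these values are a description and no relation is read from them.

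**Figure D4:**
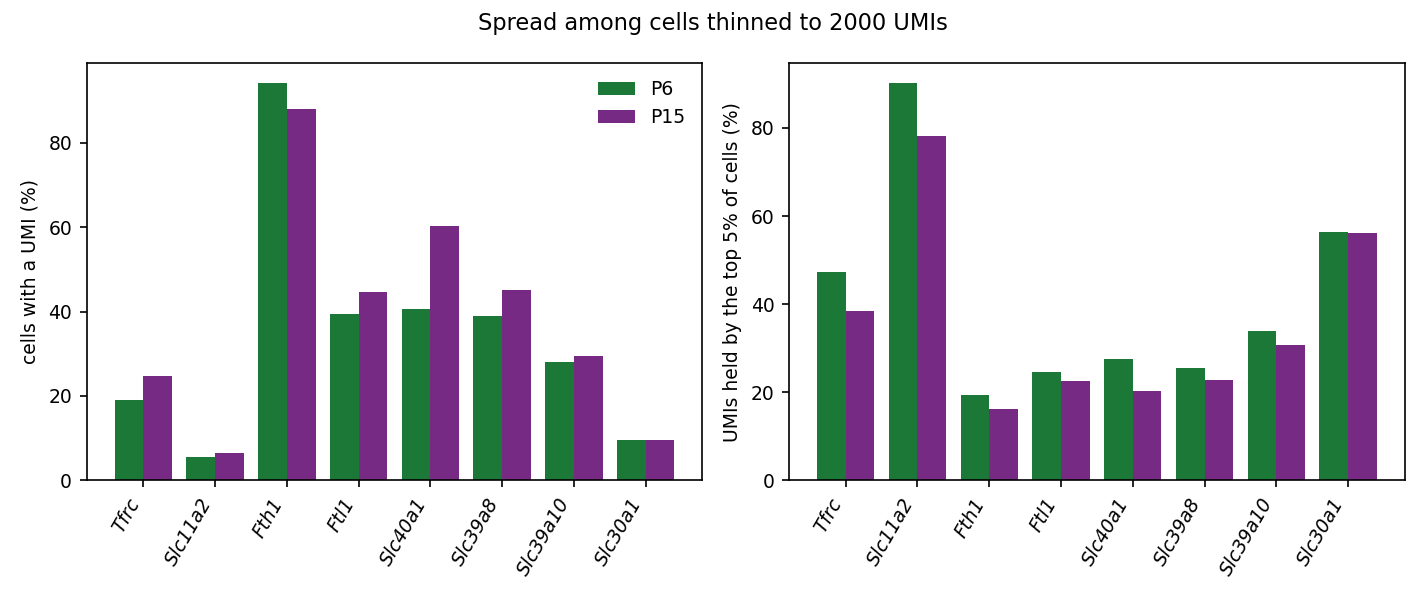
Share of cells with a UMI (left) and share of each member's UMIs held by the top 5% of cells (right) after thinning to 2000 UMIs, P6 green and P15 purple, *Mt1* and *Mt2* left out for lack of UMIs. *Slc40a1* UMIs were found in 40.5% of P6 and 60.3% of P15 cells, and *Fth1* UMIs in 94.3% and 88.2%.

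The genes with the pattern most like each member over the 9 P6 clusters were found among 3103 genes with at least 500 UMIs, by Pearson correlation of log2(CPM + 1). The points share a library and cells, so these are descriptions. *Tfrc* was most like *Ralgps2* (0.972) and *Slc38a5* (0.957), an amino acid transporter. *Slc40a1* and *Slc39a8* were both most like *Proser2* (0.971 and 0.976) and *Htra3* (0.969 and 0.964), and like each other (0.952). All 3 of these members were lowest in Arterial cells, where *Tfrc* had 1 UMI, as were *Ralgps2*, *Slc38a5*, *Proser2* and *Htra3*. The part of that cluster in the correlations was not tested. *Slc39a10* was most like *Pear1* (0.987) and *Itga1* (0.968), *Fth1* like *Csrp2* (0.913) and *Cebpd* (0.897), and *Ftl1* like *Sra1* (0.935) and *Map1lc3b* (0.933). *Fth1* and *Slc40a1* were at 0.833, and *Tfrc* and *Ftl1* ran opposite (-0.659).

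Of 41 other iron, zinc, copper and manganese genes with at least 200 UMIs, 8 were higher and 1 lower at P15 by 1.5 times or more, with a median ratio of 1.21. The share higher was near the 16.6% of all tested genes, so it is no result about these lists. Among uptake genes *Steap3*, an endosomal ferric reductase, was at 36.1 CPM at P6 and 101 CPM at P15 (2.79 times, 2.43 to 3.22), the only 1 of 4. Of 7 regulators 4 were higher: *Nfe2l2* (102 to 175 CPM, 1.71 times), *Epas1* (171 to 282 CPM, 1.65 times), *Bach1* (17.8 to 28.2 CPM, 1.59 times) and *Hfe* (37.3 to 57.9 CPM, 1.55 times). *Nfe2l2* and *Bach1* encode transcription factors that act on ferritin and haem genes in opposite ways, *Epas1* a hypoxia factor and *Hfe* a partner of the transferrin receptor. The iron regulatory proteins themselves, *Aco1* and *Ireb2*, were at ratios of 1.13 (0.924 to 1.38) and 0.912 (0.755 to 1.10), with intervals that include 1.

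Of 7 mitochondrial iron genes, *Alas1*, which starts haem synthesis, was higher (118 to 182 CPM, 1.55 times). Of 5 other storage and haem release genes none was past the limit, and *Hmox1*, which frees iron from haem, was at 30.3 and 24.8 CPM (0.818 times). Of 8 copper and manganese genes the copper importer *Slc31a1* was higher (152 to 314 CPM, 2.07 times, 1.93 to 2.22). Of 4 other zinc exporters *Slc30a9* was higher (48.1 to 74.1 CPM, 1.54 times), and none of 4 other ZIP genes was. *Mtf1*, the factor that reads metal response elements, was at 17.4 and 21.7 CPM (1.25 times, 0.986 to 1.58), and *Flvcr2*, the only other gene of the export list with enough UMIs, at 65.5 and 88.3 CPM (1.35 times).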

How the data were processed

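Droplet libraries of CD31+CD45- retinal cells were measured at P6 and P15, 1 for each age. The authors deposited UMI counts per gene and barcode, not normalized. Their processing notes name Seurat 3.0 and mm10; the aligner and annotation were not given in the sources used here. Of 22734 and 21785 gene identifiers, 22695 and 21745 matched a symbol, and rows of 1 symbol were added. Following the reporting summary, cells passed with 200 to 3500 genes and a mitochondrial share of up to 5%, unless *Hbb-bt*, *Neurod1* or *Cd63* was detected. Its limits on RNA counts were taken as limits on genes, a choice made here, since 298 of the 1560 labelled P6 cells lay within them as UMIs and 1399 as genes. Cluster values include the 161 P6 and 29 P15 labelled cells that did not pass. Cluster labels came from the study's source data, of which the copy used here holds all P6 and part of the P15 cells; Primordial is named Primitive, as in the text of the study. Doublets were weighed by cells with *Xist* and Y-linked UMIs (9 and 12 of those passing).

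UMIs were summed per library or cluster. Intervals were exact Poisson (CPM), conditional binomial (ratios) and Clopper-Pearson (shares), at 95%. For a count of 0 the upper limit is that of 3 counts. A gene counted as past the limit at 1.5 times with at least 200 UMIs, and by cluster with at least 10 expected UMIs. Named were the members, listed metal genes past the limit (at most 12 each way), ferritin copies, markers, and the 2 genes most like each member with at least 500 UMIs; *Aco1*, *Ireb2*, *Hmox1*, *Mtf1* and *Flvcr2* were added after their values were seen. Members and lists were chosen with earlier results of these data known. Some values of the listed genes are not reported here. Intervals and calls were tried on simulated Poisson counts, the model that the intervals assume. That trial does not cover spread among cells beyond counting. Alternatives covered cells, depth, weights, denominator, cluster mix and limits. Python 3.11.15, numpy 2.4.6, scipy 1.17.1, pandas 2.3.3 and matplotlib were used.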

Additional observations from a re-analysis of the deposited data

Results flagged for a closer look

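*Fth1* in Primitive cells stood on opposite sides of the other labelled cells at the 2 ages. It was at 0.791 times the other cells at P6 (2023 CPM in 155 cells, interval 0.754 to 0.829) and at 1.44 times at P15 (1832 CPM in 36 cells, interval 1.25 to 1.65), and the difference between the ages was not tested. The Primitive cells changed less than the rest: their own ratio was 0.905, against 0.391 to 0.697 in the other 5 clusters. The photoreceptor and neuron list was at 20.2 CPM in Primitive cells at P6 and 541 CPM at P15, and its part in this value was not tested.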

How the results depend on the processing

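No paired analysis was possible because each age has 1 library. No ratio called past the limit changed direction under any alternative. The number of members higher at P15, 1, was 4 with every barcode, 2 without the exclusion of *Hbb-bt*, *Neurod1* or *Cd63* cells, 3 with no UMI minimum, 2 in cells without other retinal markers (an alternative chosen after seeing the data) and 0 at a limit of 2 times; the number lower, 1, was 0 at 2 times. Against Cap-Venous cells alone, 3 pairs of member and cluster were higher in place of 6, and 21 lower in place of 15. The share of *Fth1* UMIs in the top 5% of P6 cells was 18.1% with thinning to 3000 UMIs. With thinning to 2000 UMIs *Slc40a1* was higher at P15 in 6 of 6 clusters and *Fth1* lower in 5. Over 11 alternatives the ratio ran from 0.449 to 0.549 for *Fth1*, from 1.63 to 2.16 for *Slc40a1* and from 1.27 to 1.63 for *Tfrc*. The causes of these changes were not tested. Depth limits *Mt1*, *Mt2* and the small clusters most, and P15 labels cover part of the cells.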

Other observations

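The balance of the 2 ferritin chains, chosen after their values were seen, moved in every cluster with both ages. *Fth1* UMIs per *Ftl1* UMI were 9.82 (9.37 to 10.3) in P6 cells and 4.02 (3.84 to 4.21) in P15 cells, and 5.96 and 2.13 when *Ftl1-ps1* was added to the light chain. By cluster, the P6 value ran from 4.55 in Arterial and 6.2 in Cap-Arterial cells to 12.3 in Cap-Venous cells. At P15 it ran from 3.33 in Cap-Arterial to 5.64 in Tip cells, and each of the 6 clusters with both ages had the lower value at P15. The ratio counts captured molecules of 2 genes of unlike length, so only its change, and not its size, can be read.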
